A study of Mus musculus with 8 samples.

Results

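The 10 genes described here belong to the Notch pathway and were followed through differentiation of cultured mouse muscle satellite cells, with and without the DNA methyltransferase Dnmt3a. They were the receptors Notch1, Notch2 and Notch3, the ligands Dll1, Jag1 and Jag2, the nuclear effector Rbpj, and the target genes Hes1, Hey1 and Heyl. Members were taken by gene name from the array annotation. They made up 10 of the 19645 genes tested, and 13 of the 39429 probes on the array. By the labels, the donors were male mice aged 8 weeks, and the muscle was the fast extensor digitorum longus (EDL) of the hindlimb. The mice were either Dnmt3a-KO or wild-type (WT) littermates. The cells were kept for 5 days in growth medium, replated at matched cell numbers and put in differentiation medium for 2, 4, 5 or 6 days. One-colour Agilent arrays were hybridised with RNA from each genotype on each day, 1 array per genotype and day and 8 in all. The labels name neither the Cre driver nor the deleted exons of the Dnmt3a-KO allele, nor how many animals stand behind an array.

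In Notch signalling a ligand of the Delta or Jagged family on one cell binds a Notch receptor on its neighbour, the receptor is cleaved, and its intracellular part enters the nucleus. There it joins the DNA-binding protein Rbpj and turns on Hes and Hey genes, which encode transcriptional repressors. In muscle, the pathway keeps satellite cells in the stem cell state and holds back myogenic differentiation, and its activity declines as myoblasts differentiate.

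All values are signals of 1 probe relative to the array's 75th percentile of signal, so a value of 1 equals that percentile, and differences are log2, Dnmt3a-KO minus WT. Levels of different genes were not compared, because probes differ in brightness. Between 61.6% and 67.4% of spots per array were well above background, and all 10 members were above background on 8 of 8 arrays. The Dnmt3a probe gave 46.2%, 19.8%, 21.7% and 19.1% of the WT signal in Dnmt3a-KO on days 2, 4, 5 and 6. The mean difference was -2.01 ± 0.60 (SD over 4 days; adjusted p = 0.10, limma), and whether this probe reads the deleted exons is not known. Of the myoblast markers, Pax7, Myod1, Des, Cdh15, Ncam1, Itga7 and Vcam1 were above background on 8 arrays, and Myf5 was above background on 0. The day 2 arrays stood apart. They lay on a slide of their own and were read by another scanner model and software version than the arrays of days 4 to 6, which lay on slide 2 (days 4 and 5) and slide 3 (day 6). The Y-linked transcripts Ddx3y, Eif2s3y, Kdm5d and Uty were above background on 2 of the 2 day 2 arrays and on 0 of the 6 later ones, whereas Xist, expressed from the inactive X chromosome of females, was above background on 0 of 2 and on 6 of 6. This goes against the male label for days 4 to 6, and any difference between day 2 and the later days therefore cannot be told apart from slide, scanner and source of the cells. Genotypes were compared within a day, where slide, scanner and these transcripts were matched.

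The genotype comparison asked whether the pathway differed in cells without Dnmt3a. The signals of the target gene Heyl and of the receptor Notch3 were lower in Dnmt3a-KO, by a mean of 2.06-fold for Heyl and 1.58-fold for Notch3, and both lay lowest against WT on days 5 and 6. Notch1 and Hey1 were also below WT on 4 of 4 days, by smaller steps (1.28-fold each in the mean). None of the 10 members passed the limma test over all genes at an adjusted p of 0.05, with day as a block, and 2 of the 19645 genes (0.0102%) did. At an unadjusted p under 0.05, 4 members stood against 12.9% of all genes. With 1 array per genotype and day, the 4 days served as replicates in this test, and their spread includes any true difference between days. Whether different days were taken from separate animals or dishes is not stated, so the p-values measure only the spread between these arrays. The sex-linked transcripts differed between day 2 and days 4 to 6, which goes against the same animals for both.

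Below WT on 4 of 4 days were 4 members (Notch1, Notch3, Hey1 and Heyl), against 11.5% of all genes tested. Rbpj alone was above WT on 4 of 4 days, against 10.9% of all genes, although its day 6 difference was 0.000. Over days 4 to 6, every WT array lay above every Dnmt3a-KO array for 5 members (Notch1, Notch3, Hey1, Heyl and Jag2), against 8.23% of all genes. The opposite arrangement held for 0 members and 7.47% of all genes. The median difference of the members was -0.18, and that of all genes tested was -0.01. Another background correction (normexp) moved the median difference of all genes to -0.36, and the differences to -1.44 for Notch1, -0.97 for Hey1, -0.97 for Hes1 and -1.06 for Jag1. Under it Heyl stood at -1.20 and Notch3, at -0.41, lay close to the median of all genes. Day by day, the members' median was -0.05, -0.28, -0.46 and -0.12 on days 2, 4, 5 and 6, with 6, 8, 7 and 7 of the 10 lower in Dnmt3a-KO. Of all genes tested, 46.7%, 52.6%, 59.2% and 45.5% were lower on those days, and their medians were 0.007, -0.017, -0.048 and 0.024.

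**Figure D1:**
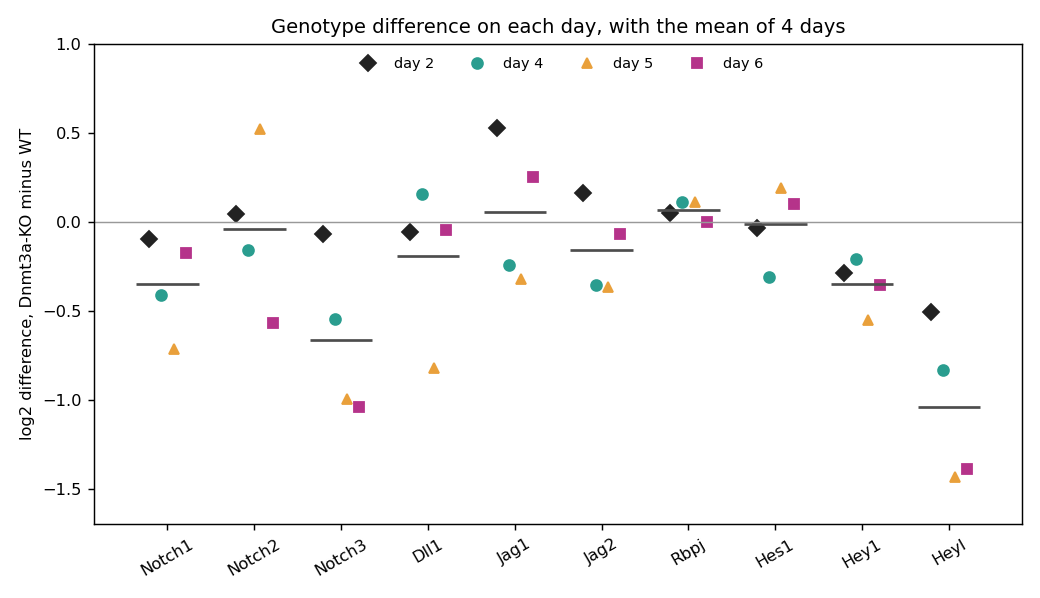
Log2 difference in signal between Dnmt3a-KO and WT (vertical axis) for each of the 10 members (horizontal axis), with 1 symbol per day and a bar at the mean of the 4 days. All 4 symbols lie below 0 for Notch1, Notch3, Hey1 and Heyl, the bar of Heyl stands at -1.04, and the symbols of Notch2, Jag1 and Hes1 lie on both sides of 0.

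Notch3 encodes a receptor best known from pericytes and vascular smooth muscle and is also made by satellite cells, where it restrains their proliferation. Its WT signal was 5.78, 0.581, 0.654 and 1.12 on days 2, 4, 5 and 6. In Dnmt3a-KO it was 5.51, 0.398, 0.328 and 0.544. The genotypes were close on day 2, at 95.4% of WT, and Dnmt3a-KO then stood at 68.6%, 50.1% and 48.6% of WT. The highest Dnmt3a-KO value of days 4 to 6 lay below the lowest WT value of those days. The mean difference over the 4 days was -0.66 ± 0.46 (SD; adjusted p = 0.30, limma), and over days 4 to 6 it was -0.86.

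The Notch3 promoter is shown because Dnmt3a adds methyl groups to cytosines in CpG dinucleotides and Notch3 was the receptor furthest below WT. The window holds 250 bases before and 50 bases after the transcription start, read from RefSeq on build GRCm38.p6 (chr17:32166841-32167140, minus strand), with each CpG in capitals.
Notch3: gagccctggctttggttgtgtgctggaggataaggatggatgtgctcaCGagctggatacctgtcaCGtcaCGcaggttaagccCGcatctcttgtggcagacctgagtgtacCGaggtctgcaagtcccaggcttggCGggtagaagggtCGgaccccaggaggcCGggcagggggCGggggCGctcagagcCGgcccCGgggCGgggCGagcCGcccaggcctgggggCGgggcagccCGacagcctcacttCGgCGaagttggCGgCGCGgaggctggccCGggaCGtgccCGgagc
It holds 25 CpG dinucleotides, more than 81.6% of the 32851 promoters of the same length in that table, whose median is 7. Methylation was not measured on these arrays.

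Notch1, the receptor studied most in satellite cell self-renewal, gave a dim signal. In WT it was 0.0886, 0.0372, 0.0380 and 0.0321 on days 2, 4, 5 and 6, and in Dnmt3a-KO it was 0.0827, 0.0279, 0.0231 and 0.0284. Dnmt3a-KO was lower on each day, by the widest margin on day 5, when it stood at 60.9% of WT. The mean difference was -0.35 ± 0.28 (SD over 4 days; adjusted p = 0.35, limma). A second Notch1 probe was above background only on the 2 arrays of day 2, with signals of 0.114 in WT and 0.0192 in Dnmt3a-KO, a difference of -2.57. It was at the floor on all later arrays, and the probes thus disagree on the size of the day 2 difference. The promoter of Notch1 (chr2:26503773-26504072, minus strand, GRCm38.p6, the same window, CpG in capitals) is given beside that of Notch3 as the other receptor below WT on each day.
Notch1: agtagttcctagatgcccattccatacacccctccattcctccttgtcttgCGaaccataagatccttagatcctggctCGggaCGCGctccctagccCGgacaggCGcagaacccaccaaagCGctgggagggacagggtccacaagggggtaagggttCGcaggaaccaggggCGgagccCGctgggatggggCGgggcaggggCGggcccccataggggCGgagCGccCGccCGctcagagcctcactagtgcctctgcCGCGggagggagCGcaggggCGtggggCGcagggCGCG
This window has 23 CpG dinucleotides, more than 78.5% of the promoters in the table. High CpG content was common to the 7 members with an entry: their windows held 15 to 63 CpG dinucleotides, and that of Jag2 held 63. Hes1, Hey1 and Heyl were not analysed here for promoter sequence.

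Notch2, a receptor with a role in satellite cell quiescence, showed no direction. Its WT signal was 1.24, 0.816, 0.846 and 1.12 on days 2, 4, 5 and 6, against 1.27, 0.732, 1.22 and 0.752 in Dnmt3a-KO. Dnmt3a-KO was higher on days 2 and 5 and lower on days 4 and 6, with a mean difference of -0.04 ± 0.46 (SD over 4 days; adjusted p = 0.94, limma). Without day 6 the mean was 0.14. A second Notch2 probe gave differences of -0.33, 0.10, 0.26 and 0.09, with a mean of 0.03. The signs of the 2 probes matched on day 5 alone.

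**Figure D2:**
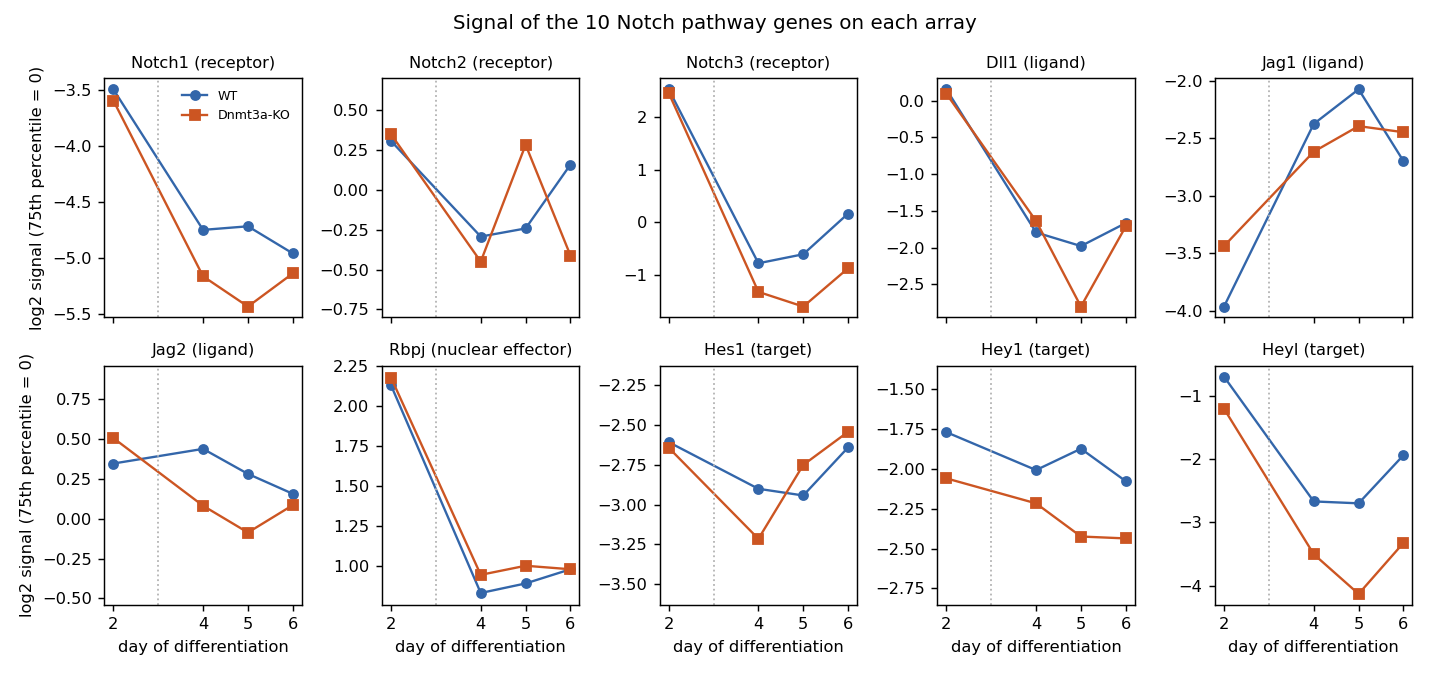
Log2 signal relative to the array's 75th percentile (vertical axis) against day of differentiation (horizontal axis) for each of the 10 members, with 1 point per array, WT as blue circles and Dnmt3a-KO as orange squares. The dotted line separates day 2, scanned on another instrument, from the later days. Notch3 falls from 2.53 to -0.78 in WT between days 2 and 4, and the lines of Heyl part from -0.69 and -1.20 on day 2 to -2.70 and -4.13 on day 5.

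The target genes did not move as a block. Heyl, a repressor of the Hey family and a direct target of Notch signalling in satellite cells, gave WT signals of 0.619, 0.157, 0.154 and 0.262 on days 2, 4, 5 and 6. In Dnmt3a-KO they were 0.436, 0.0883, 0.0571 and 0.0999. Dnmt3a-KO was thus at 70.4%, 56.0%, 37.0% and 38.2% of WT, and on days 4 to 6 no Dnmt3a-KO array reached the lowest WT array. Heyl had the largest difference of the members, -1.04 ± 0.45 (SD over 4 days; SE 0.18; adjusted p = 0.17, limma). Without day 2, the mean difference was -1.22, with an adjusted p of 0.20 in limma.

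Hey1, a second repressor of this family, was lower in Dnmt3a-KO by similar amounts on the 4 days. WT gave 0.293, 0.249, 0.273 and 0.237 on days 2, 4, 5 and 6, and Dnmt3a-KO gave 0.240, 0.215, 0.186 and 0.185. The 4 differences ran from -0.55 to -0.21, and the mean was -0.35 ± 0.15 (SD over 4 days; adjusted p = 0.25, limma). On days 4 to 6 the genotypes did not overlap.

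Hes1, the Hes family repressor that Notch induces in many tissues, differed in no single direction. The WT signal was 0.164, 0.134, 0.130 and 0.160 on days 2, 4, 5 and 6, and the Dnmt3a-KO signal was 0.160, 0.108, 0.149 and 0.172. Dnmt3a-KO lay below WT on days 2 and 4 and above it on days 5 and 6, with a mean difference of -0.02 ± 0.22 (SD over 4 days; adjusted p = 0.96, limma), and the sign of this mean turned under median and quantile scaling. Of the other targets listed, Hes7, an oscillating repressor of somite formation, gave a mean difference of 0.02. Hes5, Hey2 and Nrarp were above background on 0 arrays and were not tested.

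Among the ligands, Dll1, which differentiating myogenic cells present to their neighbours, differed between genotypes on day 5. WT gave 1.11, 0.288, 0.254 and 0.315 on days 2, 4, 5 and 6, and Dnmt3a-KO gave 1.07, 0.321, 0.143 and 0.306. On day 5 Dnmt3a-KO was at 56.5% of WT, while on the other 3 days it was at 96.0% to 111%. The Dll1 probe was printed as 10 spots per array, which gives the measurement error within an array. The 9 usable spots of the day 5 Dnmt3a-KO array ran from -2.96 to -2.66 (log2 signal), and the 10 spots of the day 5 WT array from -2.13 to -1.82. The gap on day 5 was thus wider than the spread of the spots, whose SD within an array was 0.0454 to 0.178. Spots repeat the reading of 1 RNA sample and are not biological replicates. Over the 4 days the mean Dll1 difference was -0.19 ± 0.43 (SD; adjusted p = 0.67, limma), and without day 5 it was 0.02, so the sign rests on that day.

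**Figure D3:**
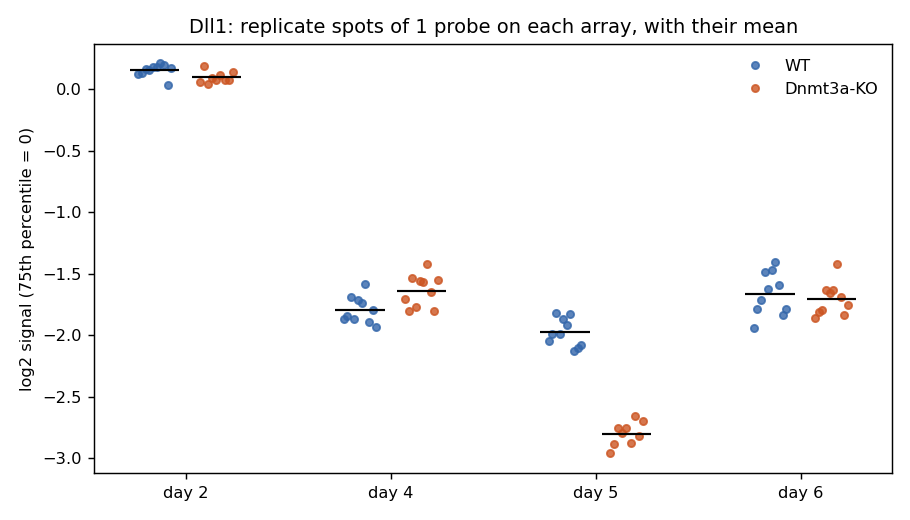
Log2 signal of each replicate spot of the Dll1 probe (vertical axis) on the 8 arrays, grouped by day (horizontal axis), with WT in blue, Dnmt3a-KO in orange and a black bar at the array's mean. The spots of the genotypes do not overlap on day 5, where the means are -1.98 in WT and -2.80 in Dnmt3a-KO, and they do overlap on day 6.

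Jag1, a Jagged ligand, was higher in Dnmt3a-KO on days 2 and 6 and lower on days 4 and 5. Its WT signal was 0.0641, 0.193, 0.237 and 0.154 on days 2, 4, 5 and 6, against 0.0923, 0.163, 0.190 and 0.183 in Dnmt3a-KO. The mean difference was 0.05 ± 0.40 (SD over 4 days; adjusted p = 0.91, limma), and it was -0.10 without day 2 and -0.01 without day 6. Jag2, the other Jagged ligand, had WT signals of 1.27, 1.36, 1.22 and 1.12 and Dnmt3a-KO signals of 1.42, 1.06, 0.942 and 1.06. On days 4 to 6 the highest Dnmt3a-KO value of Jag2 lay below the lowest WT value, and on day 2 Dnmt3a-KO was at 112% of WT. The 4 days averaged to -0.16 ± 0.25 (SD; adjusted p = 0.59, limma). The other Delta ligands were dim: Dll3, a ligand that acts inside the cell as an inhibitor, gave a mean difference of 0.13, and Dll4, best known from endothelium, was above background on 3 arrays and was not tested.

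Rbpj, the DNA-binding protein on which canonical Notch signals converge, was nearly equal in the genotypes. Its WT signal was 4.38, 1.78, 1.85 and 1.97 on days 2, 4, 5 and 6, and its Dnmt3a-KO signal was 4.53, 1.92, 2.00 and 1.97. The differences ran from 0.00 to 0.11, with a mean of 0.07 ± 0.06 (SD over 4 days; adjusted p = 0.68, limma). A second Rbpj probe gave a mean difference of 0.13, positive on each of the 4 days. The Rbpj promoter (chr5:53590096-53590395, plus strand, GRCm38.p6, from RefSeq) is shown because among the 7 members with an entry it alone held the letters TGGGAA, the core that the Rbpj protein recognises, searched on both strands (TTCCCA on the other). Matches are in capitals.
Rbpj: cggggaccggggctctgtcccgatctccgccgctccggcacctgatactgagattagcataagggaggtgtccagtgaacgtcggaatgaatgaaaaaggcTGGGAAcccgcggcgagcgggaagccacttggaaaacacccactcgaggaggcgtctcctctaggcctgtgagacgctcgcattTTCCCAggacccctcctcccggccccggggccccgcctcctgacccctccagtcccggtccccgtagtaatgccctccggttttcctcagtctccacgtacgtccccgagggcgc
The matches begin 149 and 65 bases before the start, and 25.6% of all promoters in the table hold such a match. A match describes the letters only.

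Differences of at least 2-fold on single days were few. No member was 2-fold lower in Dnmt3a-KO on day 2, where 1.14% of all genes were, or on day 4, where 3.07% were. On day 5 Heyl alone passed this fold (1.82% of all genes), and on day 6 Notch3 and Heyl did (1.87%). No member was 2-fold higher on any day, and 1.88%, 1.46%, 0.906% and 1.3% of all genes were on days 2, 4, 5 and 6. A single day has 1 array per genotype, so these counts have no replicate check.

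Heyl and Notch3 moved alike over the arrays. Their log2 signals had a Pearson r of 0.953 over 8 arrays and of 0.964 over the 6 arrays of days 4 to 6, as a description of arrays that share slides and days. The pair was not alone in this. Notch1 with Notch3 gave 0.963 over 8 arrays, and Notch1 with Jag2 gave 0.942 over days 4 to 6. The difference of day slopes between the genotypes was also tested. It was -0.26 per day for Notch3 (SE 0.06) and -0.25 per day for Heyl (SE 0.07), each with an adjusted p of 1.0 in limma. Day 2 enters these slopes, so their difference cannot be told apart from slide, scanner, software and source of the cells. The background-subtracted signal was at or below 0 in 0 non-control spots of each day 2 array, against 4775 to 5797 on the later arrays. At an unadjusted p under 0.05 these were 2 of the 10 members, against 4.17% of all genes. With 2 residual degrees of freedom, 0 of the 19645 genes (0%) passed the adjusted threshold of this test, which leaves 820 at an unadjusted p under 0.05. By Pearson correlation over the 8 arrays, the genes most like Notch3 were Arhgap22 (0.997), Igfbp3 (0.992) and Tmtc2 (0.992), and the least like were Ifngr1 (-0.992), Rell1 (-0.991) and Cd7 (-0.990). For Heyl the most like were Nipsnap1 (0.988), Pcp4l1 (0.982) and Mest (0.981), and the least like were Chmp2a (-0.992), Setmar (-0.977) and Abcg4 (-0.969). Most of the spread of both genes over the arrays lies between day 2 and the later days.

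The day course asked how the pathway moved as the cells differentiated. By the slope over days, with genotype as a covariate, 5 members fell and 1 rose at an adjusted p of 0.05 (limma), against 19.5% of all genes falling and 25.9% rising. Notch3 fell by 0.78 log2 units per day (SE 0.24; adjusted p = 0.035), Dll1 fell by 0.53 (SE 0.14; adjusted p = 0.024) and Heyl fell by 0.49 (SE 0.17; adjusted p = 0.047). Notch1 fell by 0.39 (SE 0.08; adjusted p = 0.014) and Rbpj fell by 0.30 (SE 0.08; adjusted p = 0.020), while Jag1 rose by 0.32 (SE 0.09; adjusted p = 0.032). Hey1, with a slope of -0.08, Jag2, with -0.08, Notch2, with -0.10, and Hes1, with 0.00, did not pass.

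These slopes were a step between day 2 and the later days. Day 2 exceeded the mean of days 4 to 6 by 7.68-fold in WT and 13.3-fold in Dnmt3a-KO for Notch3. The same step was 3.91-fold and 4.42-fold for Dll1, and 3.34-fold and 5.48-fold for Heyl. It was 2.49-fold and 3.14-fold for Notch1 and 2.35-fold and 2.31-fold for Rbpj. For Jag1 the later days exceeded day 2 by 2.99-fold in WT and 1.93-fold in Dnmt3a-KO. In each of these 6 genes both day 2 arrays lay outside the range of the 6 later arrays. Without day 2, 0 of the 19645 genes passed, and Notch3 and Heyl had slopes of 0.35 and 0.23 per day over days 4 to 6, opposite in sign to the slopes over all days. Without day 5, 0 of the 10 members and 391 of all genes passed. With normexp background correction, and with slide as a random block, 0 of the 10 members passed. Slide, scanner and the sex-linked transcripts changed together with this step and cannot be told apart from the day. Within days 4 to 6, the day 6 signal of Notch3 exceeded the mean of days 4 and 5 by 0.86 in WT and 0.59 in Dnmt3a-KO (log2), and that of Heyl by 0.75 and 0.49. Day 6 lay on its own slide, so this difference too cannot be told apart from the slide.

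The other genes of the pathway showed no genotype effect that passed the test. Of 63 further genes listed by role, 62 were on the array and 56 were tested, and 0 passed for genotype. Their median difference was 0.03, with 5 lower and 11 higher in Dnmt3a-KO on 4 of 4 days, against 11.5% and 10.9% of all genes. By the day slope, 15 rose and 16 fell, against 25.9% and 19.5% of all genes. Dtx1 and Dtx4, regulators of receptor trafficking, were among those not tested. Without day 2, none of these slopes passed.

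Among the other pathway genes, the non-canonical ligands ran from -0.68 in Egfl7 to 0.99 in Dlk1, with Dner at -0.04 and Cntn1 at -0.25. Dlk1, a Delta-like protein without the usual Notch-binding domain and an inhibitor of the pathway, was higher in Dnmt3a-KO on 4 of 4 days, with WT signals of 2.00, 3.59, 1.56 and 1.02 on days 2, 4, 5 and 6 and Dnmt3a-KO signals of 3.57, 7.38, 1.92 and 3.56. The 4 days averaged to 0.99 ± 0.62 (SD; adjusted p = 0.27, limma). Dlk2, its close relative, was higher by 0.33 ± 0.11 (adjusted p = 0.25). Egfl7, a secreted antagonist of Notch made by endothelium, was lower on 4 of 4 days, by 0.68 in the mean (adjusted p = 0.33). Lfng, the glycosyltransferase Lunatic fringe that tunes which ligands a receptor answers to, was lower by 0.72 (adjusted p = 0.29) and was above background on 4 WT and 3 Dnmt3a-KO arrays. Its differences were -0.56, -0.33, -0.61 and -1.37 on days 2, 4, 5 and 6. Poglut1, of the same group, was the highest at 0.19.

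The remaining roles lay closer to 0. Among the nuclear cofactors, the largest genotype difference was 0.21, in the coactivator Maml2, and the lowest was -0.05, in Maml1. The corepressors ran from -0.23 in Ctbp2 to 0.23 in Cir1, and Hes6, an inhibitor of Hes1 that was listed with them, gave 0.24. Of the genes that cleave the receptor, the gamma-secretase subunit Aph1a gave -0.09 and the sheddase Adam17 gave 0.15. Genes of ligand endocytosis ran from -0.01 in Epn1 to 0.21 in the ubiquitin ligase Neurl1a. Genes of receptor turnover ran from -0.25 in the kinase Aak1 to 0.28 in the ubiquitin ligase subunit Fbxw7 and in Dtx2. Notch4, a receptor known mainly from endothelium, gave 0.18.

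The 15 rising and 16 falling slopes, of 56, are given by role and are read against the shares of all genes above. The acetyltransferase Kat2b rose by 0.70 per day (adjusted p = 0.014) and Neurl1a rose by 0.39 (adjusted p = 0.011). The glycosyltransferase Mfng fell by 0.76 (adjusted p = 0.010), the atypical ligand Dner fell by 0.74 (adjusted p = 0.0082), and the corepressor Tle2 fell by 0.55 (adjusted p = 0.011). Notch4, Dll3 and Egfl7 rose, at 0.30, 0.40 and 0.37 per day. Among the nuclear cofactors Snw1 rose with Kat2b, and Maml1 and Ep300 fell. The corepressors Cir1 and Ctbp1 rose, as did Hes6, which was listed with them, and Spen and Ctbp2 fell with Tle2. Of the cleavage genes, the gamma-secretase subunit Psenen rose, and its partner Aph1b and the sheddase Adam10 fell. The glycosyltransferases Pofut1 and Rfng fell with Mfng. Of the 6 genes of ligand endocytosis, Mib2, Neurl1a, Neurl1b and Epn2 rose and 0 fell. In receptor turnover Numbl and Dtx2 rose, and Dtx3, Nedd4, Cbl and Aak1 fell.

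**Figure D4:**
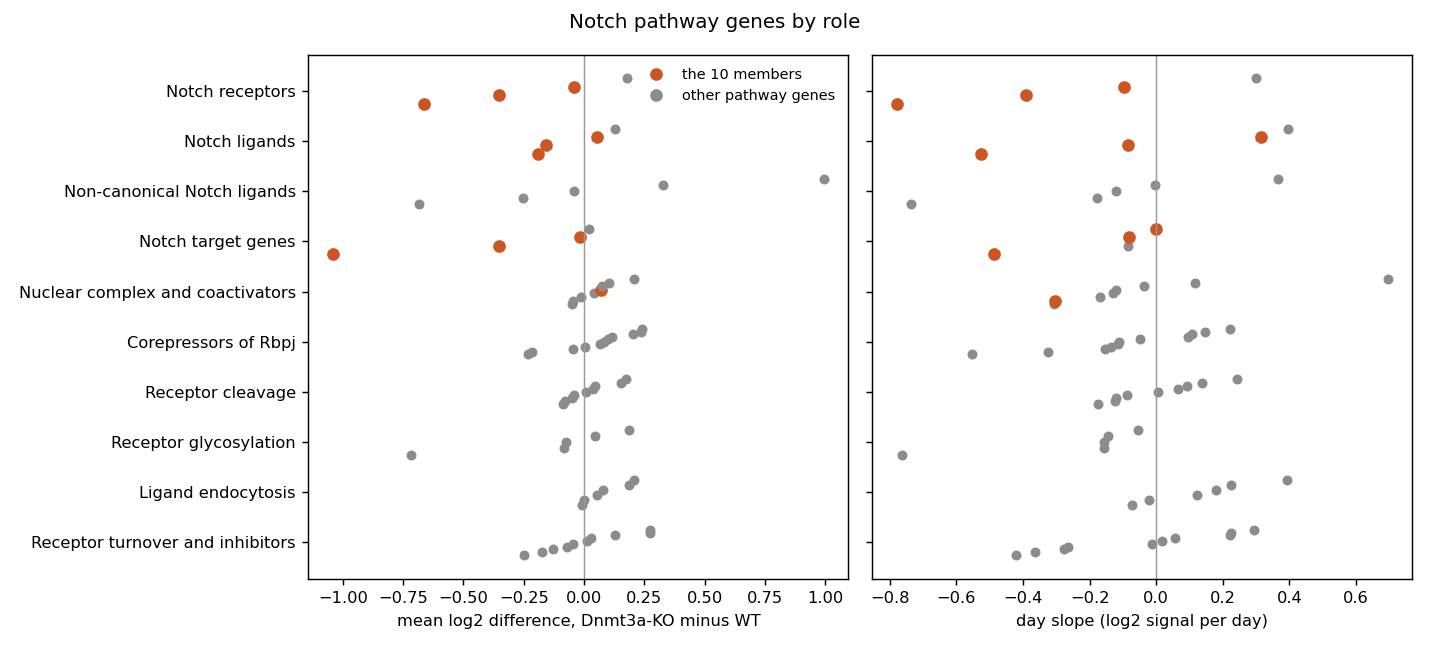
Mean log2 difference between Dnmt3a-KO and WT (left, horizontal axis) and day slope in log2 signal per day (right, horizontal axis) for the 66 pathway genes tested, grouped by role (vertical axis), with 1 point per gene and the 10 members in orange. Heyl at -1.04 and Dlk1 at 0.99 mark the ends of the left panel, and Notch3 and Mfng stand at the low end of the right one, at -0.78 and -0.76.

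Genes that Notch drives in satellite cells, as listed from background knowledge, gave a median difference of -0.44 over the 6 of 7 tested, with 0 passing the test. By day the median was -0.11, -0.94, -0.17 and -0.65 on days 2, 4, 5 and 6. All of the 6 but Pax7 were collagens, which fibroblasts make too. The median was lowest on days 4 and 6, as was that of the fibroblast list (-0.34 and -0.55), whereas Heyl and Notch3 lay lowest on days 5 and 6. The part of fibroblasts in these values was not tested. Pax7, the transcription factor that defines satellite cells, had WT signals of 1.05, 0.163, 0.160 and 0.212 on days 2, 4, 5 and 6 and Dnmt3a-KO signals of 0.787, 0.119, 0.0597 and 0.132. It was below WT on each day, by 0.74 ± 0.47 in the mean (SD; adjusted p = 0.28, limma), and at its lowest against WT on day 5, as Heyl and Dll1 were. The collagens Col5a3 and Col5a2 were also lower on 4 of 4 days, by 0.85 and 0.36 in the mean. Col5a1, at -0.51, Col6a2, at -0.24, and Col6a1, at -0.11, were not. Calcr, the calcitonin receptor of quiescent satellite cells, was above background on 0 arrays.

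No gene of the cell cycle, myogenic differentiation or other cell type lists passed the genotype test, and their medians are given as a description. Of the cell cycle genes, 11 of 12 were tested, and their median difference was -0.97, -1.21, 0.02 and -0.95 on days 2, 4, 5 and 6. On the same days Heyl differed by -0.506, -0.835, -1.434 and -1.388, and Notch3 by -0.068, -0.544, -0.997 and -1.041. The part of the cell cycle genes in the result was not tested. The myogenic differentiation genes differed by a median of 0.32, 0.01, 0.01 and 0.04.

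Notch3 and Heyl also mark pericytes and smooth muscle. The other 8 tested of 10 markers of those cells had a median difference of 0.44, -0.49, -0.09 and -0.20 on days 2, 4, 5 and 6, and 1 of the 8, Acta2, was lower on 4 of 4 days. On those days their summed signal was 145, 239, 254 and 212 in WT and 153, 143, 233 and 145 in Dnmt3a-KO. The sum leans on the brightest probes, those of Acta2 and Tagln. Of the defining markers, Myh11 and Kcnj8 were each above background on 1 array, and Rgs5 was above it on 2 WT and 3 Dnmt3a-KO arrays, with differences of both signs. On days 2, 4, 5 and 6 the differences were 2.16, -1.88, 0.33 and -0.94 for Pdgfrb and 0.66, -1.58, 0.15 and -1.43 for Tagln. Cnn1 gave 1.95, -3.78, -0.004 and -1.40, with WT at the floor on day 2. Rgs5 gave -0.33, 1.172, -1.184 and 1.949, with Dnmt3a-KO at the floor on day 5, and Mcam gave 0.072, 0.058, -0.167 and 0.174. For Cspg4 they were 1.541, -0.515, 0.256 and -0.131. Acta2 gave -0.048, -0.471, -0.362 and -0.154, and Abcc9 gave 0.214, -0.285, -0.469 and -0.24. The part of pericytes in the result was not tested.

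Endothelial cells carry Notch4, Dll4, Jag1 and Hey1. Of 12 endothelial markers, 8 were tested. On days 2, 4, 5 and 6 their median was 0.11, -0.50, -0.22 and 0.09. Their summed signal on those days was 3.61, 5.47, 5.38 and 4.96 in WT and 4.27, 4.03, 4.5 and 4.85 in Dnmt3a-KO. Tek, Tie1 and Esam were above background on 0 arrays and Cdh5 on 3, whereas Pecam1, Kdr, Vwf and Egfl7 were above it on 8. Mean differences ran from -1.52 in Flt1, above background on 6 arrays, to 0.30 in Robo4, above it on 5. Markers of fibroblasts and fibro-adipogenic cells, 10 of 12 tested, gave medians of 0.41, -0.34, 0.17 and -0.55 on the same days. Their summed signal was 20.4, 45.4, 71.3 and 53.7 in WT and 23.3, 27.6, 79.1 and 35.5 in Dnmt3a-KO. The list held the gene Tcf4, which is not Tcf7l2, the fibroblast marker also called by that name. Tcf4 enters these medians and sums, and gave 9.32 of the 20.4 in WT and 9.19 of the 23.3 in Dnmt3a-KO on day 2. Lum and Dpt were above background on 0 arrays, and Col1a1, Col3a1 and Gsn, among others, on 8. Col1a1 differed by 2.25, -2.49, 0.21 and -1.26, and Dcn by 0.824, 0.867, 1.835 and -0.58. On day 4 Pdgfra, Dcn and Cd34 were higher in Dnmt3a-KO and the other tested genes of this list lower. On day 6 Pdgfra and Ly6a were higher and the others lower. The macrophage list, 7 of 10 tested, gave medians of 0.03, -0.19, -0.05 and -0.22. Its summed signal was 20.9, 12.6, 13.1 and 10.3 in WT and 21.3, 9.92, 11.3 and 8.92 in Dnmt3a-KO. Itgam alone gave 20.3 of the 20.9 in WT on day 2. Cd68, Tyrobp and Lyz2 were above background on 0 arrays, and Csf1r and Itgam, among others, on 8. The Schwann cell list, 7 of 8 tested, gave medians of 0.27, -1.78, 0.01 and 0.08. Its summed signal was 0.672, 1.4, 0.65 and 0.455 in WT and 0.927, 0.506, 0.634 and 0.445 in Dnmt3a-KO. The part of these cells was not tested. In bulk RNA, fewer cells of a type and less RNA per cell cannot be told apart.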

How the data were processed

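RNA of 8 samples, 4 WT and 4 Dnmt3a-KO, had been labelled with Cy3 and hybridised to 1-colour Agilent arrays. The files were deposited as scanner output of Agilent Feature Extraction. Per the file headers, the processed intensity (background-subtracted signal) came from version 11.0.1.1 for day 2 and 9.5.3.1 for the other days, and the submitters' processing notes name version 9.5. The deposited score per spot equals, within 1, that intensity divided by the 75th percentile of all spots, controls included, and multiplied by 100, in 100% of the spots compared.

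Processed intensity was divided by the array's 75th percentile over non-control spots, floored at 0.00763 and taken to log2. Outlier spots were left out, spots of a probe were averaged, and 273 probes without a usable spot on some array were dropped. Array gene names were updated through RefSeq accessions (26155 of 39429 probes matched, 3413 symbols changed). Per gene, the probe with the highest mean was kept where at least 4 of 8 arrays had it well above background, which left 19645 genes. Fits used limma 3.58.1 in R 4.3.3 (lmFit, eBayes, Benjamini-Hochberg threshold 0.05): genotype with day as block , day slope with genotype, and their interaction. The fits were checked on simulated data. Single days had no test.

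Named were all members and, per pathway role, the genes past the threshold and otherwise the largest rise and fall. Some pathway genes are counted but not reported here by name. The members and lists were chosen with earlier results of these data known. Arrays of the same day share a slide. The day comes from the labels, the slide from the names of the scanner files, and scanner and software version from the file headers. Probe coordinates in the files name no build and were not used. The number of arrays limits the precision.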

Additional observations from a re-analysis of the deposited data

Results flagged for a closer look

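Of 30 groups of 4 values examined (each member's signal in WT, in Dnmt3a-KO, and the difference between them), 5 had 1 value set far from the other 3, beyond Dixon's critical value of 0.829. Chance gives about 1 in 20. In each case it was a signal of day 2, whose slide, scanner and sex-linked transcripts differ from those of the later days. The Notch1 log2 signal on day 2 was -3.50 in WT, against -4.96 to -4.72 on the later days, and -3.60 in Dnmt3a-KO, against -5.43 to -5.14. The Dll1 signal in WT was 0.15 on day 2, against -1.98 to -1.67. Rbpj stood at 2.13 in WT and 2.18 in Dnmt3a-KO on day 2, against 0.83 to 0.98 and 0.942 to 0.999 on the later days.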

How the results depend on the processing

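No member and no other pathway gene passed the genotype test under any of the 17 alternatives. Notch1, Notch3, Hey1 and Heyl kept their sign in all of them, but many of these settings could not have turned it. Each of these genes was below WT on every day, so leaving out a day could not change the sign. Settings that changed only the filter, the trended and robust variance or the block returned the same difference for these genes. Normexp moved the median of all genes downwards, towards a negative sign. The adjusted p ran from 0.076 to 1.0 for Heyl, Hey1 and Notch1 and from 0.19 to 1.0 for Notch3. The count of all genes past the genotype threshold was 2, and it was 14 with median scaling, 0 with quantile scaling, 38 with the filter on 8 of 8 arrays, 93 with a trended and robust variance, 14 with array weights, 128 with day as a random block and 19 with slide as a block. It was 0 without a filter, with the mean of all probes, with the deposited score, without the block and with normexp, and 0 to 3 with a day left out. At an unadjusted p under 0.05, these settings gave 403 genes without the block and 7977 with normexp. Normexp background moved the median of all genes' genotype difference to -0.36, with Heyl then at -1.20, Notch3 at -0.41 and Jag1 at -1.06. The members past the slope threshold, 6, were 0 with normexp, 3 with no filter on dim probes and 0 with slide as a random block, and 0 to 6 with a day left out. The pathway genes past it, 37 with the members included, were 0, 26 and 9 under the same settings, and 0 to 39 with a day left out. The genotype difference of Hes1 turned to 0.009 with quantile and 0.014 with median scaling. The slope of Notch2 turned to 0.008 with the mean of probes, and that of Hes1 to -0.005 with median scaling, -0.05 with normexp and -0.038 with array weights. With a day left out, the genotype difference ran from -0.23 to 0.14 for Notch2, -0.083 to 0.085 for Hes1, -0.31 to 0.017 for Dll1 and -0.10 to 0.18 for Jag1. The slope ran from -0.14 to 0.12 for Notch2, -1.29 to 0.35 for Notch3, -0.094 to 0.23 for Hes1, -0.86 to 0.23 for Heyl, -0.85 to 0.01 for Dll1, -0.039 to 0.51 for Jag1 and -0.44 to 0.046 for Rbpj. The cause was not tested. All 10 members were well above background on 8 of 8 arrays.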
